A study of Rattus norvegicus with 6 samples.

Results

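The genes described here are 8 genes named for peripheral myelin and Schwann cells: Pmp22, Prx, Pmp2, Ncmap, Gldn, Dhh, Cdh19 and Fbxo2. They were picked by symbol from tables of 32623 genes and 40808 transcripts, and all 8 were present, each under 1 gene identifier and with 9 transcripts between them. The tissue was spinal cord of female Wistar rats aged 8 weeks, all carrying a spinal cord injury model. In 3 libraries the animals had received electrical stimulation, and these are called ES. In the other 3 the injured animals had received none, and these are called SCI. Uninjured cord and peripheral nerve were not among the samples analysed here. The labels give neither the time after injury, the kind and site of the stimulation, the stretch of cord taken, nor whether each library is a separate rat. The p-values therefore speak only of variation among these 6 libraries, and that variation could be technical.

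Schwann cells make the myelin of peripheral nerves and of the spinal roots, whereas oligodendrocytes make the myelin of the cord itself. After cord injury Schwann cells can also appear inside the lesion and wrap axons there. Their program is driven by the transcription factors Egr2 and Sox10, and the second of these is shared with oligodendrocytes. Among the genes here Pmp22, Prx, Pmp2 and Ncmap encode myelin proteins, Gldn an extracellular protein that gathers sodium channels at nodes of Ranvier, Dhh a signal from Schwann cells to the nerve sheath, and Cdh19 a cadherin of the Schwann cell lineage. Fbxo2 stands apart by its known role. It encodes an F-box protein that recognises N-linked sugars on misfolded glycoproteins, and it is best known from neurons.

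Values are FPKM, fragments per kilobase of feature scaled to library size. A recurring value of FPKM times transcript length, sought only within a preset window, was read as 1 read pair. It put the libraries at 13900000 to 18600000 read pairs, an estimate that the window itself bounds. Read-pair counts and counting errors given below rest on that estimate. Markers of cord tissue were present. In ES and SCI, Mobp stood at 205 and 159 FPKM, Mog at 131 and 88.7, and Olig2 at 36.0 and 21.5. In the same order Snap25 stood at 43.0 and 31.5, Slc1a2 at 18.4 and 40.4, and Gfap at 1995 and 2880. Chat was low, at 1.26 and 1.09. A call is an adjusted p under 0.05 in a limma fit over all 15750 genes with a mean of at least 0.5 FPKM. In that fit 7088 genes (45%) were called, 2747 higher and 4341 lower in ES. This split depended on scaling. Quantile normalization gave 3414 higher against 3257 lower, median centring 4021 against 2975, and equal library totals 2070 against 5584. Of the cord markers above, Gfap and Slc1a2 were called lower in ES, by 1.44-fold and 2.20-fold. Mobp, Mog, Olig2 and Snap25 were called higher, and Chat was not called.

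Peripheral myelin and Schwann cell genes were lower with stimulation. Of the 8 genes, 7 fell, 0 rose and 1, Fbxo2, did not pass, where 27.6% of all genes tested fell. The same 7 had every ES library below every SCI library, a pattern found in 34.6% of all genes tested. The median log2 fold change of the 8 was -0.69 on the log2(FPKM + 1) scale, against -0.06 over all genes tested. Of the 7, 5 fell in every alternative of processing at the same threshold. Gldn and Dhh lost their calls in some, and these are named with their values. In bulk RNA, fewer Schwann cells and less of these RNAs per Schwann cell cannot be told apart.

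**Figure D1:**
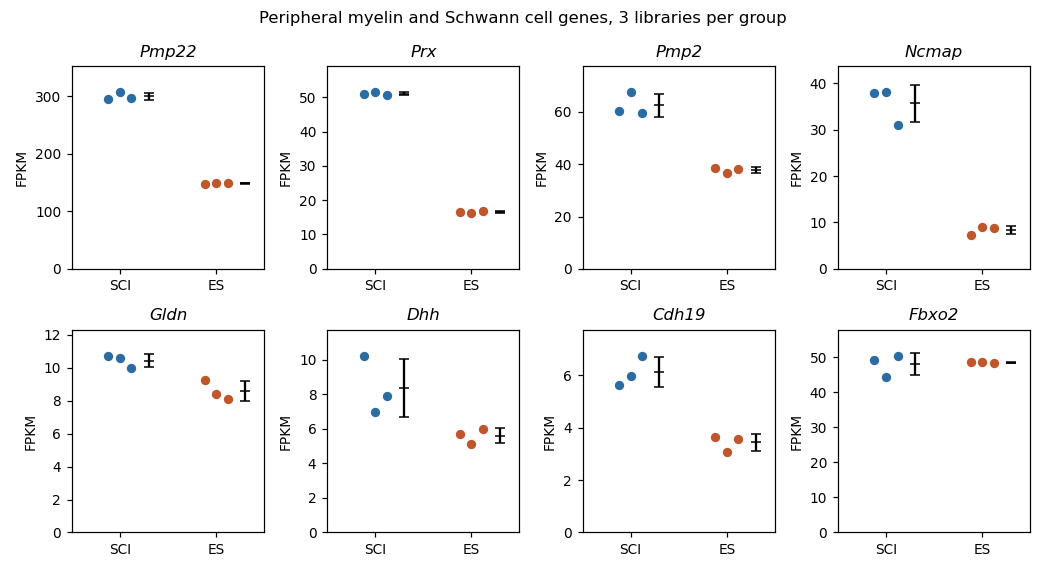
FPKM of each of the 8 genes in the 3 SCI and 3 ES libraries (points), with the mean and SD beside them, on linear axes from 0. In 7 panels the ES points lie below all SCI points, and Fbxo2 overlaps.

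The 3 largest changes were in myelin proteins. Ncmap encodes a small membrane protein of noncompact myelin (chromosome 5, 153729250 to 153737161, minus strand, 4 exons, in the coordinates of the deposited table). It stood at 37.9, 38.0 and 31.1 FPKM in SCI replicates 1 to 3 and at 7.35, 8.94 and 8.72 in ES. The groups were far apart, although SCI replicate 3 lay under the other two. The fall was 4.28-fold, from 35.7 ± 3.99 to 8.34 ± 0.858 FPKM (SD, n = 3), a log2 fold change of -1.97 ± 0.10 (SE; limma adjusted p = 2.24e-05), and it ranked 33 of 15750 from the most negative. Its transcript of 509 bases is the shortest of the set. The values rest on an estimated 52.2 to 320.1 read pairs per library. Counting error by itself would make a coefficient of variation of 13.8% at the lowest count, in ES replicate 1, and less in every other library. Observed were 10.3% in ES and 11.2% in SCI. The SCI libraries had higher counts, so the 13.8% does not apply to them.

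Prx encodes periaxin, the scaffold that ties the Schwann cell membrane to its basal lamina through dystroglycan (chromosome 1, 84304228 to 84324560, plus strand, 7 exons). Its values were 51.0, 51.4 and 50.6 FPKM in SCI and 16.6, 16.4 and 16.8 in ES. Libraries of a group were nearly equal, with coefficients of variation of 0.775% in SCI and 1.32% in ES, and the groups did not overlap. Counting error by itself would make 3.05% at the lowest count, an estimated 1073 read pairs in ES replicate 1. The ES spread was thus below this estimate of counting error, which depends on the estimated depth, and why was not tested. The SCI libraries had higher counts, so the 3.05% does not apply to them. The fall was 3.07-fold, from 51.0 ± 0.395 to 16.6 ± 0.219 FPKM, or -1.56 ± 0.03 in log2 (adjusted p = 5.44e-07).

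Pmp22 encodes peripheral myelin protein 22, a membrane protein of compact myelin whose dose matters in human neuropathies, and which fibroblasts and other cells also make (chromosome 10, 49538588 to 49568583, plus strand). It was the most abundant of the 8 per length, at 295, 306 and 296 FPKM in SCI against 148, 149 and 148 in ES. The groups were again separate, and the ES libraries differed among themselves by far less than the groups did. The ES coefficient of variation was 0.265%, below the 1.63% that counting error by itself would make at the lowest estimated count. The mean fell 2.02-fold, from 299 ± 6.26 to 148 ± 0.393 FPKM, or -1.01 ± 0.02 in log2 (adjusted p = 1.17e-06).

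The upstream sequences of these 3 genes are shown because they had the largest falls and fell together. RefSeq promoter windows on build GRCr8 were matched for 7 of the 8 genes, and the 250 bases before the annotated start are printed 5′ to 3′ on the strand of the gene. The Pmp22 window could not be matched to either of the deposited Pmp22 transcripts, whose starts differ. Capitals mark a CCAAT motif (CCAAT, or ATTGG on the other strand) or a GC box (GGGCGG, or CCGCCC). The windows are chr5:152902415-152902664 (minus strand) for Ncmap, chr1:91914171-91914420 (plus strand) for Prx and chr10:48294682-48294931 (plus strand) for Pmp22.
Ncmap: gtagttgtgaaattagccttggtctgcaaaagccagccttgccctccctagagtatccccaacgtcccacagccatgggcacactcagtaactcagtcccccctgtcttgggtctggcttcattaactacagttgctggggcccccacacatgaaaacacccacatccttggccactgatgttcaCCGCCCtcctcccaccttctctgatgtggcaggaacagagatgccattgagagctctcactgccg
Prx: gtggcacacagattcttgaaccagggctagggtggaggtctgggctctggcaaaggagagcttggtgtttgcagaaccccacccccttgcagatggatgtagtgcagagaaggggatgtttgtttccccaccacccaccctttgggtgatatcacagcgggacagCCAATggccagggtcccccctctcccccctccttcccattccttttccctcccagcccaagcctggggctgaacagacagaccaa
Pmp22: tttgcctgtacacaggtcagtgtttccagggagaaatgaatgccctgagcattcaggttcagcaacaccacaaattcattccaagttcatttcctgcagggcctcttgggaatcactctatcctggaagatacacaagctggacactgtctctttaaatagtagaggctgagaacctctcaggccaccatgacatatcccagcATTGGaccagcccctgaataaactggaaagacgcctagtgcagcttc
The CCAAT motif begins 85 bases before the start in Prx and 47 before it in Pmp22, and the GC box of Ncmap begins 65 before it. Over both strands, CCAAT was found in 3 of the 7 windows and in 34% of all 33469 windows of this length, and the GC box in 2 of 7 and in 30.5%. Neither GCGTGGG, a core of EGR binding sites, nor ACAANG, a core of SOX binding sites, was in any of the 7 windows, against 3.68% and 36.9% of all windows. TATAAA was in that of Cdh19 alone, and in 12.9% of all. These are matches of letters in a short window.

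Pmp22 was the only one of the 8 with more than 1 transcript, and its transcripts fell by different amounts. They start 2463 bases apart on chromosome 10, have 5 exons each, and end within 1 base of each other. As background, Pmp22 is known to have alternative first exons, of which the upstream one is used mainly in myelinating Schwann cells and the downstream one in many tissues. The tables do not say which first exon each transcript carries. The transcript with the upstream start, ENSRNOT00000081415, stood at 295, 311 and 298 FPKM in SCI and at 141, 141 and 144 in ES. It fell 2.12-fold (log2 fold change -1.08 ± 0.03, adjusted p = 1.06e-05 over 19223 transcripts, of which 32.3% were called and 19.5% fell).

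The transcript with the downstream start, ENSRNOT00000041606, was far less abundant, at 27.0, 23.3 and 25.1 FPKM in SCI and 19.9, 20.9 and 18.1 in ES. It fell 1.28-fold (log2 fold change -0.34 ± 0.07, adjusted p = 0.0183). That call was lost after median centring (adjusted p = 0.0580), without ES replicate 1 (0.0504) and without SCI replicate 3 (0.0570). Its share of both transcripts was 8.37%, 6.98% and 7.78% in SCI and 12.4%, 12.9% and 11.2% in ES, so every ES library had a larger share than every SCI library. The mean share was 12.1% ± 0.877 against 7.71% ± 0.698 (exact permutation test, two-sided, p = 0.1, the smallest that 3 against 3 libraries allow). The log2 changes of the transcripts differed by 0.74, and a limma test of transcript usage over 2589 genes called Pmp22 (adjusted p = 0.00559), as it did 8.81% of those genes. The shares depend on how reads common to both transcripts were divided. The deposited gene value of Pmp22 was 91.7% of the sum of its transcripts in each library, so it is not their plain sum.

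**Figure D2:**
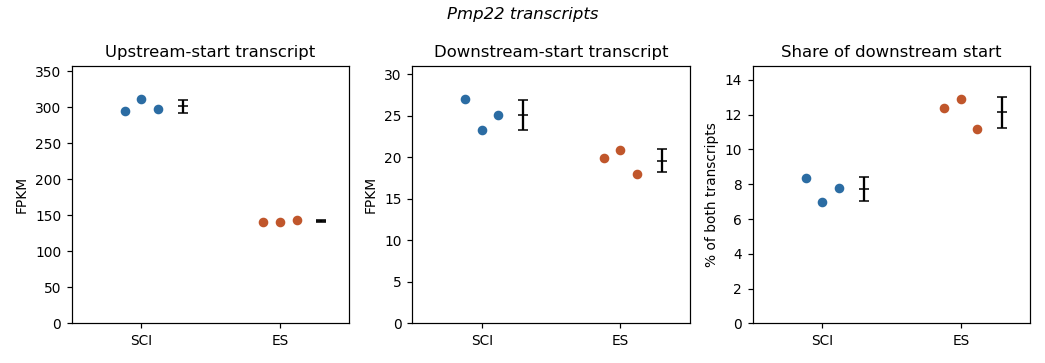
FPKM of the upstream-start and downstream-start transcripts of Pmp22, and the downstream share in percent, in each library (points) with mean and SD. The upstream transcript fell 2.12-fold and the downstream one 1.28-fold, and the share is higher in all 3 ES libraries.

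Pmp2 and Cdh19 fell by less. Pmp2, also named Fabp8, is the fatty acid-binding protein of peripheral myelin (chromosome 2, 93827504 to 93831419, 4 exons). It stood at 60.4, 67.5 and 59.6 FPKM in SCI and at 38.5, 36.6 and 38.2 in ES. No ES library reached the SCI range, and the fall was 1.65-fold, from 62.5 ± 4.35 to 37.8 ± 1.06 FPKM, or -0.71 ± 0.05 in log2 (adjusted p = 0.000107). Cdh19, cadherin 19 of Schwann cell precursors and their descendants, is the gene of lowest level in the set (chromosome 13, 32344966 to 32427177, minus strand, 11 exons). It was at 5.61, 5.99 and 6.74 FPKM in SCI and 3.66, 3.08 and 3.58 in ES. Here too the groups were separate, with a fall of 1.78-fold (6.11 ± 0.573 to 3.44 ± 0.317 FPKM, -0.68 ± 0.09 in log2, adjusted p = 0.00106).

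Dhh and Gldn, the secreted members, had smaller changes that depended on settings. Dhh encodes desert hedgehog, the Schwann cell signal that organises the perineurium (chromosome 7, 140575288 to 140580783, minus strand, 3 exons). Its values were 10.2, 6.98 and 7.93 FPKM in SCI and 5.70, 5.12 and 6.02 in ES. SCI replicate 1 was well above the other two, and the lowest SCI library was close to the highest ES library. The mean fell 1.49-fold, from 8.38 ± 1.67 to 5.61 ± 0.459 FPKM, or -0.49 ± 0.13 in log2 (adjusted p = 0.0212). The call ended after quantile normalization (adjusted p = 0.0523), without ES replicate 1 (0.0517) and without ES replicate 2 (0.0662), within a range of 0.0119 to 0.0662 over all alternatives.

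Gldn encodes gliomedin, which binds the axonal proteins Nrcam and neurofascin at nodes of peripheral nerve (chromosome 8, 58870516 to 58914603, plus strand, 10 exons). It was at 10.7, 10.6 and 9.98 FPKM in SCI and 9.28, 8.40 and 8.09 in ES, a narrow gap without overlap. The fall was 1.21-fold, from 10.4 ± 0.399 to 8.59 ± 0.620 FPKM, or -0.26 ± 0.06 in log2 (adjusted p = 0.0149), and that p had a range of 0.00528 to 0.0694 over all alternatives. It did not pass after quantile normalization (adjusted p = 0.0607) or median centring (0.0694). A gene on the opposite strand, AABR07070221, overlaps the span of Gldn, and the library kit was stranded. None of the other 7 genes overlaps an annotated gene in the deposited table.

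Fbxo2 (chromosome 5, 164972480 to 164977916, plus strand, 6 exons) overlapped between groups, at 49.3, 44.4 and 50.3 FPKM in SCI and 48.5, 48.5 and 48.2 in ES. The log2 fold change was 0.01 ± 0.05 (adjusted p = 0.858), with a 95% confidence interval of -0.10 to 0.13. It turned slightly negative with equal totals, with array quality weights and without SCI replicate 2. Its neighbours of the same glycoprotein-binding F-box group were likewise not called. Fbxo6 stood at 44.0 ± 2.16 in ES and 46.0 ± 3.50 FPKM in SCI (adjusted p = 0.440), and Fbxo44 at 18.4 ± 0.422 and 19.5 ± 1.06 (adjusted p = 0.202, and lower with equal totals at 0.0348). Of the ubiquitin ligase core that Fbxo2 joins, Skp1 rose 1.18-fold to 219.9 ± 3.32 FPKM, and Cul1 and Rbx1 were not called.

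The order of the 8 levels changed between groups. In SCI it ran, in mean FPKM per length, from Pmp22 over Pmp2, Prx, Fbxo2, Ncmap, Gldn and Dhh to Cdh19, and among neighbours in that order only the ranges of Gldn and Dhh overlapped. In ES Fbxo2 stood second, above Pmp2, and Gldn stood above Ncmap, with ranges of the latter pair overlapping. Within-library ratios of FPKM show the same unequal falls. Ncmap over Gldn was 3.11 to 3.58 in SCI and 0.792 to 1.08 in ES, and Prx over Pmp22 was 0.168 to 0.173 and 0.110 to 0.113. Pmp2 over Pmp22 moved the other way, from 0.201 to 0.220 in SCI to 0.246 to 0.261 in ES. For each of the 10 ratios computed, the exact two-sided permutation p was 0.1, the smallest possible here, and 0.1 after adjustment over the 10.

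Most other Schwann cell genes fell too. In a list of 20 that shares no gene with the 8, 19 could be tested: 15 of them fell, 3 rose and Arhgef10 was not called, with a median log2 fold change of -0.56. Over all genes tested 27.6% fell and 17.4% rose, and these shares also stand beside the counts of the lists that follow. Drp2, which joins periaxin to dystroglycan, fell from 22.4 ± 0.464 to 9.44 ± 0.259 FPKM. Scn7a, a sodium channel-like gene of nonmyelinating Schwann cells, fell from 19.0 ± 0.937 to 6.51 ± 0.408, and Plekha4 from 39.5 ± 1.37 to 16.7 ± 0.178. Egr2 fell 2.00-fold, from 5.91 ± 0.639 to 2.95 ± 0.284 FPKM (adjusted p = 0.000695).

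The 3 genes of that list that rose were Sox10, Ngfr and Erbb3, which other cells of the cord use as well. Whether that use bears on the rises was not tested. Sox10, shared with oligodendrocytes, rose 1.63-fold from 62.9 ± 3.56 to 103 ± 1.11 FPKM (adjusted p = 4.71e-05). Ngfr, the low-affinity neurotrophin receptor, rose 1.13-fold to 27.5 ± 0.841 FPKM (adjusted p = 0.0263), and Erbb3, the neuregulin receptor, 1.09-fold to 21.3 ± 0.582 (adjusted p = 0.0366). With equal totals neither Ngfr nor Erbb3 was called (adjusted p = 0.134 and 0.333). Ngfr was also lost without ES replicate 1 or 2 or SCI replicate 1 or 2 (0.0542 to 0.0796), and Erbb3 without each single library but ES replicate 3 (0.0573 to 0.110) and without a variance trend (0.0591). Prx over Egr2, in FPKM, was 7.88 to 9.82 in SCI and 5.13 to 5.96 in ES.

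Genes linked to the repair state that Schwann cells take after nerve injury were mixed. Of 13 tested, 5 rose, 2 fell and 6 did not pass, with a median of 0.07, and with equal totals 3 rose and 3 fell. Without ES replicate 1 or SCI replicate 2 the number that rose was also 3, and without SCI replicate 1 the median was -0.01. Olig1, which oligodendrocytes also express, rose 1.81-fold, and Gap43, the growth cone protein, rose 1.35-fold to 69.5 ± 1.74 FPKM. Jun, the transcription factor of the repair state, fell 1.16-fold from 68.3 ± 1.19 to 58.8 ± 1.43 FPKM, and Ncam1 fell 1.18-fold. Ligands of that state were low. Lif rose 1.98-fold, from 0.908 ± 0.185 to 1.79 ± 0.243 FPKM (adjusted p = 0.00769). Btc was at 2.54 ± 0.238 in SCI and 3.19 ± 0.143 in ES (adjusted p = 0.0406), a call lost without a filter (0.0670), with equal totals (0.0862) and without each single library but SCI replicate 3 (0.0688 to 0.116). Gdnf, Artn and Shh were not called and had means below 3 FPKM in both groups.

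Myelin genes of oligodendrocytes, many of them shared with Schwann cells, went the other way. Of 18 tested, 17 rose, 0 fell and Gpr37 did not pass, where 17.4% of all genes tested rose, and the median was 0.57. With equal totals Ermn lost its call and Gpr37 fell, and Ermn was also lost without ES replicate 3, SCI replicate 1 or SCI replicate 3 (adjusted p = 0.0694 to 0.0743) and without a variance trend (0.0521). Cldn11, of the tight junctions of central myelin, rose 1.49-fold from 470.2 ± 4.45 to 702 ± 9.33 FPKM. Set against Cnp in the same library, Prx had a ratio of 0.102 to 0.105 in SCI and 0.0196 to 0.0200 in ES. For Pmp22 over Cnp the ranges were 0.589 to 0.624 and 0.176 to 0.178. The ranges were far apart in both ratios.

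**Figure D3:**
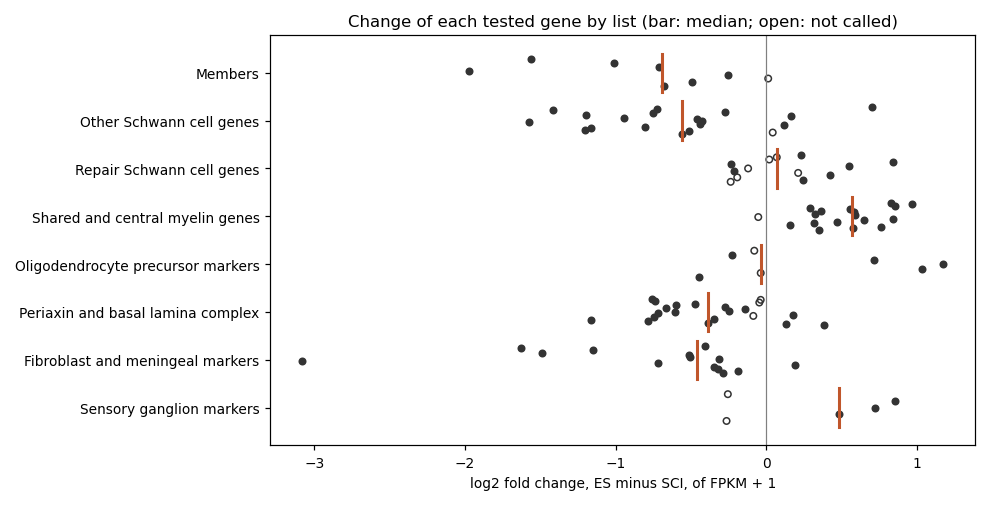
Log2 fold change (ES minus SCI, of FPKM + 1) of every tested gene in 8 gene lists, 1 point per gene, filled where called, with the median as a bar. Peripheral lists lie mostly below 0 (medians -0.69 and -0.56) and the central myelin list above it (median 0.57).

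Markers of meninges and fibroblasts fell in the same libraries. Of 14 tested, 13 fell and 1, Dpt, rose, with a median of -0.46, and the rise of Dpt was lost with equal totals (adjusted p = 0.0723) and without ES replicate 3 (0.0549). Their summed level was 5657 to 5744 FPKM in SCI and 2618 to 2639 in ES. Most of that sum was Ptgds, the prostaglandin D synthase of meninges and oligodendrocytes, at 4328 ± 51.7 and 1543 ± 17.8 FPKM. Krt19, Slc47a1, a meningeal transporter, and Col3a1, a fibroblast collagen, fell 31.3-fold, 3.40-fold and 1.25-fold. Lypd2 was at or near 0 in all 6 libraries. The summed level of the 8 genes was 512 to 531 FPKM in SCI and 276 to 278 in ES, and the part of meninges, roots or fibroblasts in that difference was not tested. Pmp22 over Col1a1 was 0.914 to 0.980 in SCI and 0.523 to 0.541 in ES, so Pmp22 fell by more than Col1a1. Ptgds, Krt19 and Slc47a1 fell by more than Pmp22, which fell 2.02-fold, and Col3a1 fell by less.

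Sensory ganglion markers were mixed, and many were at or near 0. Scn11a was listed at 0 in all 6 libraries, and Scn10a, Mrgprd, Isl1 and Pou4f1 had means below 0.2 FPKM in both groups. The summed level of the list was 29.2 to 31.3 FPKM in SCI and 45.1 to 50.8 in ES. Of 5 tested, 3 rose, namely Prph, Tac1 and Calca, which neurons of the cord also express, and 2 did not pass. These were Avil, an actin regulator of sensory neurons, at 1.85 ± 0.202 FPKM in SCI and 1.37 ± 0.114 in ES (adjusted p = 0.0519), and the capsaicin receptor gene Trpv1, at 0.825 ± 0.145 and 0.527 ± 0.0928 (0.0949). For both, every ES library lay below every SCI library. Avil was called lower with equal totals (0.0287), both were without a variance trend, and 1 of the 5 was without SCI replicate 3. P2rx3 was under the filter, at 0.388 FPKM in SCI and 0.551 in ES. Oligodendrocyte precursor markers were mixed, with Gpr17, Olig2 and Neu4 higher, Pdgfra and C1ql1 lower and 2 of 7 not called, and their sum was 198 to 202 FPKM in SCI and 212 to 219 in ES. Of other neural crest cells, the melanocyte genes Tyr and Mlana were near 0, while Pmel was at 2.91 ± 0.642 FPKM in SCI and 3.22 ± 0.353 in ES and not called (adjusted p = 0.499). Of 4 tested genes in that list 3 fell, Ednrb, Edn3 and Mitf, and Mitf kept its call without ES replicate 2 but not without any other single library (adjusted p = 0.0997 to 0.127). Mitf was also lost with a pseudocount of 0.01, no filter, quantile normalization, median centring, array quality weights or no trend (0.0510 to 0.0720), which leaves 2 that fell. The sum of that list was 62.4 to 65.0 FPKM in SCI and 43.8 to 49.1 in ES.

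Partners of periaxin and components of the Schwann cell basal lamina mostly fell. Among 21 that were tested, 15 were lower, 3 higher and 3 not called (median -0.39), where 27.6% of all genes tested were lower. Quantile normalization or median centring left 13 lower, and equal totals gave 17. Beside Drp2, Dag1, which encodes dystroglycan, fell 1.31-fold to 59.2 ± 0.169 FPKM, and Itga6 and Itgb4, the integrin pair of the outer Schwann cell membrane, fell 1.70-fold and 1.67-fold. Nid1, a basal lamina linker, fell 1.53-fold to 49.9 ± 0.812 FPKM. The members that rose were Itgb1, Col4a1 and Col4a2, and Col4a2 lost its call with equal totals while Itgb1 lost its call after quantile normalization. Vessels, meninges and astrocytes use most of these genes too. Prx over Drp2 went from 2.24 to 2.30 in SCI to 1.73 to 1.80 in ES.

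Most relatives of Pmp22 fell, and those of Pmp2 were mixed. In the epithelial membrane protein family 4 of 5 tested genes fell and 1 rose (median -0.52). Emp2, Emp3 and Tmem47 fell 1.70-fold, 1.44-fold and 1.54-fold, to 9.98 ± 0.193, 88.8 ± 1.95 and 14.1 ± 0.453 FPKM. Perp, low at 0.785 and 0.341 FPKM in SCI and ES, also fell, and lost its call after quantile normalization or median centring and without ES replicate 1, ES replicate 2, SCI replicate 1 or SCI replicate 3 (adjusted p = 0.0840 to 0.108). Emp1 rose 1.10-fold, a call lost with equal totals (adjusted p = 0.149), and Lim2, a lens protein gene, was listed at 0 in every library. Among fatty acid-binding and related proteins 4 of 8 tested identifiers fell, 1 rose and 3 were not called (median -0.21), and after median centring 3 fell and 2 rose. Over all genes tested 27.6% fell and 17.4% rose. Fabp5 fell 1.60-fold from 986 ± 9.57 to 618 ± 7.88 FPKM, Fabp7, of radial glia and astrocytes, 1.33-fold to 664 ± 17.5, and Fabp4, of vessels and fat cells, 1.46-fold to 72.7 ± 5.79. Per length Pmp2 was well under Fabp5 and Fabp7 in both groups.

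In the hedgehog pathway several coreceptors fell, while Shh and the targets Ptch1 and Hhip were not called. The pathway list, 16 genes tested, had 10 lower and 0 higher (median -0.42), where 27.6% of all genes tested were lower. Quantile normalization or median centring made that 9 lower and 1, Ptch1, higher. Boc, Cdon and Gas1, coreceptors of hedgehog ligands, fell 2.53-fold, 1.72-fold and 2.63-fold, to 8.62 ± 0.396, 3.65 ± 0.129 and 6.16 ± 0.577 FPKM. Smo, the signal transducer, fell 1.62-fold to 9.69 ± 0.738 FPKM, and the transcription factor gene Gli3 2.53-fold to 0.960 ± 0.0933. Gas1 is named beyond the rule, chosen after its values were seen.

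Of the genes that hedgehog signalling is known to induce, Gli1 fell 1.31-fold to 3.69 ± 0.305 FPKM (adjusted p = 0.0173). That call was lost after quantile normalization (adjusted p = 0.119) or median centring (0.0572), and without ES replicate 1, ES replicate 3, SCI replicate 2 or SCI replicate 3 (0.0531 to 0.0578). Ptch1 stood at 10.4 ± 0.235 in ES and 9.71 ± 0.191 FPKM in SCI (adjusted p = 0.137). Hhip was not called either (adjusted p = 0.319). Shh stood at 2.02 ± 0.262 and 1.89 ± 0.395 FPKM, and the mean of Dhh was above that of Shh in both groups.

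**Figure D4:**
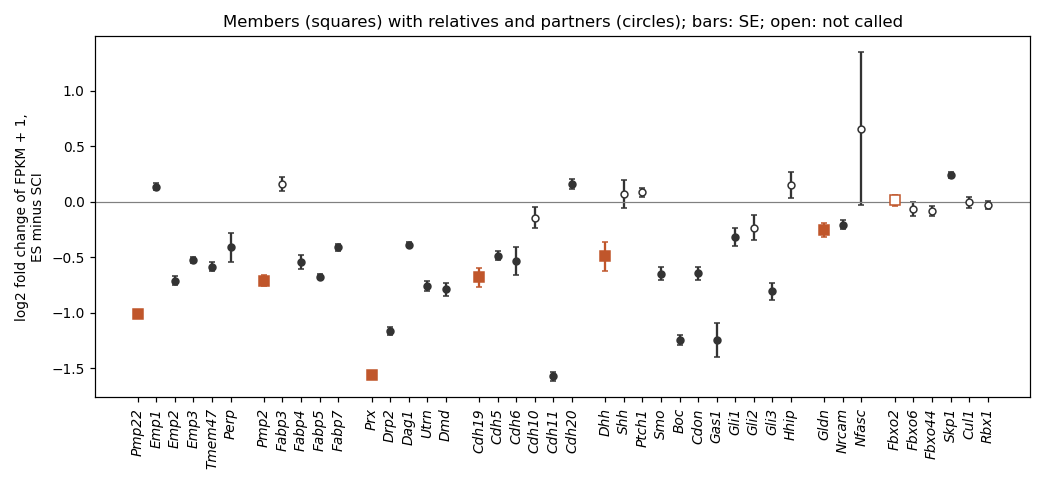
Log2 fold change of FPKM + 1 (ES minus SCI) with its SE for 7 of the 8 genes (squares), each followed by relatives or partners (circles), open where not called. Prx, with -1.56, lies below its partners Drp2 and Dag1, and Nfasc has the widest bar because of ES replicate 3.

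Among type II cadherins, the family of Cdh19, 3 of 7 tested genes were lower, 1 higher and 3 not called (median -0.14). Over all genes tested 27.6% were lower and 17.4% higher. Cdh11, a cadherin of mesenchymal cells, fell 3.07-fold from 65.7 ± 2.24 to 21.4 ± 0.843 FPKM, Cdh5, of endothelium, 1.42-fold, and Cdh6 1.59-fold. Cdh20 rose 1.13-fold, and lost that call with equal totals (adjusted p = 0.149) and without each single library but ES replicate 3 (0.0625 to 0.108). Among relatives of Gldn with an olfactomedin domain, 8 of 10 tested fell and 2, Olfm1 and Olfm2, rose (median -0.49). Neither of these 2 was called with equal totals, Olfm1 also not without ES replicate 1 or 2 or SCI replicate 1 or 2, and Olfm2 not without a filter or without each single library but SCI replicate 2. Lower were 7 when quantile normalized and 6 when median centred. Myoc, myocilin, which is also made by Schwann cells, fell 2.51-fold from 58.7 ± 0.737 to 23.4 ± 0.894 FPKM, and Olfml2a fell 1.95-fold to 16.0 ± 0.192.

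At nodes and paranodes, where gliomedin acts, 4 of 17 tested genes were higher, 5 lower and 8 not called (median -0.02). That is close to the shares over all genes tested, 17.4% higher and 27.6% lower. The list's counts of higher and lower became 5 and 4 by quantile normalization, 6 and 4 by median centring, and 3 and 6 with equal totals. Nrcam, a receptor of gliomedin, fell 1.17-fold from 9.92 ± 0.0319 to 8.48 ± 0.0479 FPKM (adjusted p = 0.00603), and was not called after quantile normalization (0.0577) or median centring (0.0555). Nfasc, which encodes neurofascin, stood at 131, 131 and 20.2 FPKM in ES and 45.1, 43.3 and 44.8 in SCI. ES replicate 3 was below every SCI library while the other two were far above, and the gene was not called (adjusted p = 0.474). Kcna2, a juxtaparanodal potassium channel gene, fell 1.88-fold, and Bcan, a perinodal proteoglycan gene, rose 1.32-fold.

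Over the 6 libraries, the profile of Prx was most like those of Ptgds, Gfap and Tctn3, with Pearson correlations of log2(FPKM + 1) that all round to 1.00. With 3 libraries in each of 2 groups, such values mostly reflect the group difference, and 662 of the 15750 genes correlated with Prx above 0.99. Pmp2 was most like Gfm2, Crebrf and Adamts12, each also at 1.00, and 201 genes passed 0.99. The authors' deposited table marked Prx, Pmp22 and Ncmap as significant and the other 5 genes as not. The q-values of the authors' deposited table were nonetheless 9.05e-10 for Pmp2, 8.70e-05 for Cdh19 and 0.0360 for Dhh. For Gldn the authors' deposited table gave a q-value of 0.340, against the call here.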

How the data were processed

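Poly(A) RNA from 1 ug of total RNA was made into stranded paired-end libraries, per the labels' protocols. The authors deposited FPKM per gene and per transcript, with 0.0001 in place of 0, which was set back to 0. Per the file headers, the deposited tables also hold the fold (a ratio of mean FPKM), its log2, a p-value and a q-value. The submitters' processing notes list the tools HISAT and StringTie without versions. Not given in the sources used here were the authors' test, the genome build and the annotation release. FPKM scales with annotated length and total, so values of genes move with the rest of the library. Coordinates are as deposited.

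Each column was assigned to a sample through its treatment and its replicate number. Because FPKM are not whole reads, log2(FPKM + 1) was fitted by limma (version 3.58.1, under R 4.3.3) with its trend of variance on mean and two-sided tests, for features with a mean of at least 0.5 FPKM, and adjusted by Benjamini-Hochberg over all of them. Usage was tested with diffSplice and a Simes p. Log2 fold changes are on that scale, which understates low genes, and fold values are ratios of mean FPKM. The fits were first tested on simulated data. Fold changes of list members without a printed p are calls of the same fit.

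The 8 genes and the lists were chosen with earlier results of these data known, so no p adjusted over a list is given. Named from each list were up to 4 genes by smallest p and known direct partners or relatives; others, named to complete a count, were chosen after their values were seen. Crabp2 has 2 gene identifiers and enters its list under both. Alternatives were pseudocounts of 0.1 and 0.01, no filter or 2 FPKM, median centring, quantile normalization, equal totals, no trend, array quality weights, each library left out, a replicate block, adjusted p under 0.1 and a 2-fold minimum. Sequences are from RefSeq, build GRCr8. A promoter of Pmp2 and protein sequences were not used here, and some list members that the naming rule takes are not reported here.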

Additional observations from a re-analysis of the deposited data

How the results depend on the processing

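Ncmap, Prx, Pmp22, Pmp2 and Cdh19 kept their direction and their call in the 17 alternatives other than the 2-fold minimum, with log2 fold changes of -2.09 to -1.88, -1.63 to -1.47, -1.08 to -0.92, -0.78 to -0.62 and -0.83 to -0.55. Fbxo2 changed sign with equal totals (-0.060), array quality weights (-0.0013) and without SCI replicate 2, the low end of a range of -0.041 to 0.047 over libraries left out singly, and passed in none. A 2-fold minimum left 424 genes and 599 transcripts called in place of 7088 and 6213, among them Ncmap, Prx and Pmp22. For transcript usage, 569 genes were called without a filter and 228 with it. Leaving out 1 library gave 5907 to 6430 genes, 4713 to 5257 transcripts and 163 to 199 usage genes. The transcript split of 2463 higher and 3750 lower became 1865 and 4747 with equal totals and 3658 and 2597 after median centring.

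Libraries with the same replicate number did not deviate together (correlations of -0.026 to -0.029, against -0.053 to 0.080 for unlike numbers). These values give no sign of pairing by number. They cannot exclude it, because deviations within a group of 3 constrain each other. With the replicate block 6317 genes, 4543 transcripts and 115 usage genes were called. In that replicate block the Pmp22 usage result had an adjusted p = 0.0584 and its downstream transcript 0.0542, while the 7 genes kept their calls. Among genes named from lists, the same block ended the calls of Ngfr, Erbb3, Ermn, Btc, Cdh20, Olfm1 and Olfm2 (adjusted p = 0.0570 to 0.0910). Depth limits Ncmap most, and it has the shortest transcript.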
